A study of Mus musculus with 8 samples.

Results

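Transcripts of 9 enzymes of the tricarboxylic acid (TCA) cycle were followed in gastrocnemius, a calf muscle, of mice with and without Bcat2. The enzymes run from citrate synthase onwards: Cs, Idh2, Idh3a, Idh3b, Ogdh, Dlst, Suclg1, Fh1 and Mdh2. They were taken by symbol from the 38741 symbols of the deposited table, and all 9 were found on 1 row each and passed the filter on low values.

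The TCA cycle runs in the mitochondrial matrix, where it oxidises acetyl-CoA from sugars, fats and amino acids and hands electrons to the respiratory chain. Muscle fibres rely on it for sustained work, and fibres rich in mitochondria carry more of its enzymes. Carbon of isoleucine and valine enters the cycle as succinyl-CoA, and that of leucine and part of isoleucine as acetyl-CoA. Bcat2 encodes BCATm, the mitochondrial aminotransferase that starts this breakdown in muscle.

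The knockouts (KO) were 4 males homozygous for the Bcat2tm1.2Clyn allele, and they were compared with 4 wild-type males (WT), all on a C57BL6 background. Ages were 10 to 11 weeks in knockouts and 9 to 10 weeks in wild type, and body weights 15 to 24 g in knockouts and 22 to 25 g in wild type. Both genotypes had a choice of chow or a purified diet lacking branched-chain amino acids from the time of their dams, and each library came from 1 mouse. The knockout columns KO5 to KO8 carry numbers that no labelled knockout has, so a weight or age could not be tied to a knockout value.

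Bcat2 itself read 2.09 to 5.26 FPKM in knockouts and 41.2 to 83.0 FPKM in wild type. FPKM scale the fragments of a gene by its exon length and by the library's mapped total, so levels of different genes can be compared per length. Muscle markers were abundant in every library, with Ckm, the muscle creatine kinase, at 10059 to 13975 FPKM in knockouts and 10379 to 13690 FPKM in wild type. FPKM carry no read totals. Depth relative to WT2, read from the steps of low FPKM values, ran from 0.547 to 1.21 in knockouts and from 0.435 to 1.22 in wild type. Genes with a mean of at least 1 FPKM were tested, 11118 in all. The median log2 fold change of these genes was -0.12, so fold changes are also given relative to it.

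Upstream sequence of the enzymes is given as description only, and no link between it and the enzyme levels was tested. RefSeq promoter windows (GRCm38.p6, the build of mm10), from 250 bases before to 50 bases after a start site, were held for 8 of the 9 enzymes (all but Idh3a), in 13 windows. The windows below belong to Cs and to Ogdh and Dlst of the 2-oxoglutarate dehydrogenase complex, whose values separated the genotypes, and to Idh3b, whose values did not. Capitals mark matches to the motifs searched on both strands, and lower case marks the rest.

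Cs, chr10:128337477-128337776, plus strand: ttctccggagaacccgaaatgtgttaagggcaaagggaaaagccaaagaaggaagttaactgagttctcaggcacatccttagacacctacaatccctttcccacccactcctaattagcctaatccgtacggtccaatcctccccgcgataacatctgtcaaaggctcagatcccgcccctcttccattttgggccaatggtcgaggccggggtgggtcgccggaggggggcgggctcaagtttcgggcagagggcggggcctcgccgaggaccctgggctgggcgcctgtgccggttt

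Ogdh, chr11:6292308-6292607, plus strand: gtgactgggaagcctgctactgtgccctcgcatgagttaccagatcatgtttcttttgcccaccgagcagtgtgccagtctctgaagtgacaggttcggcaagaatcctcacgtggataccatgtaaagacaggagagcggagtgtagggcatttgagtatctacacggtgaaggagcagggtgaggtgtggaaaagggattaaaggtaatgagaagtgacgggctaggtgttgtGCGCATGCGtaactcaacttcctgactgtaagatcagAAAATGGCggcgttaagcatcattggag

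Dlst, chr12:85110583-85110882, plus strand: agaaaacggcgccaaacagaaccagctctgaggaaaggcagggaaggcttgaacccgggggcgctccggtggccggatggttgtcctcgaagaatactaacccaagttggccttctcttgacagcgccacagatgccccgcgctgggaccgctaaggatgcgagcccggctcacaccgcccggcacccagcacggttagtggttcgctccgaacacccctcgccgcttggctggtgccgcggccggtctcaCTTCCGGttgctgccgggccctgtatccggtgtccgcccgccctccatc

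Idh3b, chr2:130284402-130284701, minus strand: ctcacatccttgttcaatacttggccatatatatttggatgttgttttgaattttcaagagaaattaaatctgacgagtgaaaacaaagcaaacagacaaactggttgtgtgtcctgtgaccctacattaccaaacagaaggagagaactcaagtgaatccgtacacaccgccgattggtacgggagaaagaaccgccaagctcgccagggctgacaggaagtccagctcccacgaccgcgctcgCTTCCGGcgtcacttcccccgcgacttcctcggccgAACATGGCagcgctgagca

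The motifs were TNAAGGTCA for oestrogen-related receptors (ERR), GCGCNTGCG for NRF1, CCGGAAG for ETS factors including GABP, and AANATGGC for YY1, all factors linked to mitochondrial genes. The ERR motif was in 0 of the 8 enzymes' windows, and 1.43% of all 27025 genes in the table held it. The NRF1 motif was found in Ogdh, in 2 overlapping windows of 6, against 7.12% of all genes. The ETS motif was found in Idh3b and Dlst, against 9.93% of all genes. The YY1 motif was found in Idh3b and Ogdh, against 6.96% of all genes. In the Idh3b window the ETS match began at position -5 and the YY1 match at position 32, counted from the start site at 1, and no matches in these windows overlapped each other. These matches are letters in a window, and no binding was measured.

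Messenger RNA levels of the enzymes differed 8.58-fold between the highest and lowest knockout means and 6.82-fold between the wild-type means. Mdh2 and Idh3b stood first and second in both genotypes, and Dlst last. In knockouts the order was Mdh2, Idh3b, Fh1, Suclg1, Idh3a, Cs, Idh2, Ogdh and Dlst, and each neighbouring pair kept that order in 4 of 4 mice. In wild type it was Mdh2, Idh3b, Fh1, Suclg1, Idh3a, Cs, Ogdh, Idh2 and Dlst. There, Suclg1 exceeded Idh3a in 2 of 4 mice and Idh3a exceeded Cs in 2 of 4 mice, so the levels of these 3 transcripts did not differ beyond their spread. Fh1 exceeded Suclg1 in 3 of 4 wild-type mice. Only Mdh2 over Idh3b and Idh3b over Fh1 were neighbours whose values did not overlap, in both genotypes. Ogdh exceeded Idh2 in 3 of 4 wild-type mice, while Idh2 exceeded Ogdh in 4 of 4 knockouts. A near copy of citrate synthase, Csl, read at most 0.319 FPKM in any mouse, and the Ogdh relative Ogdhl at most 0.483 FPKM. Both were looked up after the values of Cs and Ogdh were seen.

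**Figure D1:**
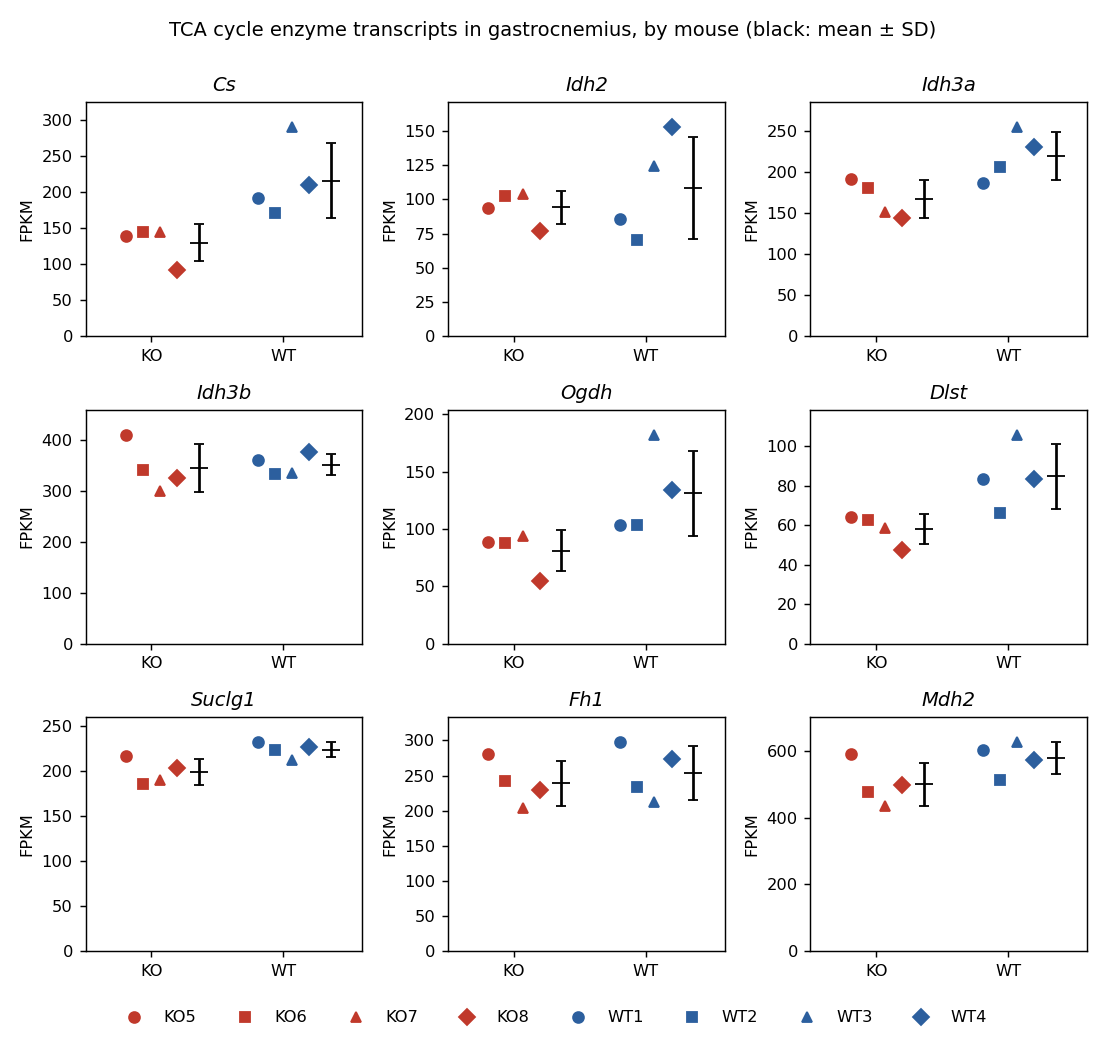
FPKM of each enzyme (y axis, from 0) in KO mice (left, red) and WT mice (right, blue), 1 symbol per mouse, with the mean ± SD in black (n = 4 each). Knockout and wild-type points are fully apart for Cs, Ogdh and Dlst and overlap for the other 6.

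Citrate synthase (Cs), 2-oxoglutarate dehydrogenase (Ogdh) and its partner subunit Dlst were lower in every knockout than in any wild-type mouse. The other 6 enzymes overlapped between genotypes. None of the 9 passed the test over all genes, where 3 of 11118 genes (0.027%) did so by limma with Benjamini-Hochberg adjustment at 0.05, and 0.018% in the lower direction. At an unadjusted limma p under 0.05, 4 of the 9 were lower in knockouts (Cs, Ogdh, Dlst and Idh3a) and 0 higher, against 7.33% lower and 2.99% higher among all tested genes. Without WT3 or without KO8 that count was 2, Cs and Dlst. Groups did not overlap for 3 of the 9 enzymes, each lower in knockouts, against 4.68% of tested genes that were apart in that direction. That count was 6 without KO5, which had the highest knockout value of 6 enzymes, and then took in Idh3a, Suclg1 and Mdh2. For neither count was a share over all genes taken with a mouse left out. The median log2 fold change of the 9 enzymes was -0.21, against -0.12 for all tested genes. Fold changes were below 0 for 9 of 9 enzymes, against 63.6% of all tested genes, and below the all-gene median for 7. Relative to that median they were -0.60 for Cs, -0.56 for Ogdh, -0.40 for Dlst and -0.27 for Idh3a. The others lay nearer to it, at -0.096 for Mdh2, -0.051 for Suclg1, -0.028 for Idh2, 0.033 for Fh1 and 0.082 for Idh3b. Median-ratio scaling turned Idh2, Idh3b and Fh1 to the other side of 0. Muscle is a mixture of cells, and fewer cells of a type and less RNA per cell cannot be told apart in these values.

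Cs makes citrate from oxaloacetate and acetyl-CoA, and its enzyme activity, which was not measured here, is widely used as a measure of mitochondrial content. It is on chromosome 10 (ENSMUSG00000005683, mm10, 128337832 to 128362479). Its level was 138, 145, 144 and 92.0 FPKM in KO5 to KO8, against 191, 171, 290.3 and 209 FPKM in WT1 to WT4. The 4 knockouts thus lay below the lowest wild-type mouse, with KO8 well under the other knockouts and WT3 well over the other wild-type mice. The knockout mean of 129.8 ± 25.4 FPKM was 60.2% of the wild-type mean of 215 ± 52.3 FPKM (SD, n = 4 each). On the log2 scale the difference was -0.72 (SE 0.21, 95% interval -1.21 to -0.23), or -0.60 relative to all genes (limma adjusted p = 0.48, unadjusted p = 0.0089). The exact permutation test gave p = 0.0286 (2-sided, n = 4 each), the smallest that 4 against 4 mice allow. Without KO8 the difference was -0.57, and without WT3 it was also -0.57.

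Isocitrate is oxidised by the NAD-dependent complex of Idh3a, Idh3b and Idh3g, and separately by Idh2, which makes mitochondrial NADPH. Idh3a, the catalytic subunit (ENSMUSG00000032279, chromosome 9, 54586511 to 54604661), read 192, 181, 152 and 144 FPKM in KO5 to KO8. In WT1 to WT4 it read 187, 206, 255 and 230.2 FPKM. Only KO5 reached into the wild-type range, at WT1. The means were 167 ± 22.8 FPKM in knockouts and 219 ± 29.7 FPKM in wild type (SD, n = 4 each), a log2 difference of -0.39 (limma adjusted p = 0.48), with an exact permutation p = 0.0571. After median-ratio scaling of the libraries that difference was -0.24 and its unadjusted limma p was 0.167.

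Idh3b, a regulatory subunit of the same complex, showed almost equal means. It is on chromosome 2 (ENSMUSG00000027406, 130279309 to 130284547), where its exons overlap those of the oppositely oriented Nop56 by at most 5 bases in GENCODE M21. Knockouts KO5 to KO8 read 411, 342, 301 and 326 FPKM, against 361, 334, 335 and 377 FPKM in WT1 to WT4. Both the highest and the lowest of the 8 values came from knockouts, KO5 and KO7. The log2 difference was -0.037 (SE 0.13, 95% interval -0.33 to 0.26, limma adjusted p = 0.91), and median-ratio scaling gave 0.12, so no direction can be given. Idh2 (ENSMUSG00000030541, chromosome 7, 80094846 to 80115392) read 93.6, 103, 104 and 77.1 FPKM in KO5 to KO8. Wild-type mice spread far more widely, at 85.9, 70.6, 125 and 153 FPKM in WT1 to WT4. The wild-type coefficient of variation of Idh2 was 34.5%, the highest of the 9 enzymes, against 13.0% in knockouts. Its log2 difference of -0.15 had a 95% interval of -0.71 to 0.42 (limma adjusted p = 0.791), and it took the opposite sign without WT4 (0.039).

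The 2-oxoglutarate dehydrogenase complex turns 2-oxoglutarate into succinyl-CoA with the same 3-part design as pyruvate dehydrogenase and the branched-chain keto acid dehydrogenase. Ogdh, its first enzyme (ENSMUSG00000020456, chromosome 11, 6291633 to 6356642), read 88.4, 87.7, 93.5 and 54.4 FPKM in KO5 to KO8. It read 104, 104, 182 and 134 FPKM in WT1 to WT4. All knockouts were under all wild-type mice, and the 2 extremes were again KO8 and WT3. Means were 81.0 ± 17.9 FPKM in knockouts and 131 ± 37.1 FPKM in wild type (SD, n = 4 each), and the knockout mean was 61.9% of wild type. The log2 difference was -0.68 (SE 0.24, limma adjusted p = 0.48, unadjusted p = 0.0218), with an exact permutation p = 0.0286. The difference was -0.50 without KO8 and -0.51 without WT3, and in both cases its unadjusted limma p was just over 0.05.

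Dlst, the succinyltransferase core of that complex (ENSMUSG00000004789, chromosome 12, 85110833 to 85134091), read 64.2, 62.6, 58.7 and 47.6 FPKM in KO5 to KO8. Wild-type values were 83.5, 66.0, 106 and 83.7 FPKM in WT1 to WT4, so the gap between the genotypes was narrow, between KO5 and WT2. Means were 58.3 ± 7.49 FPKM in knockouts and 84.8 ± 16.4 FPKM in wild type (SD, n = 4 each). The log2 difference was -0.52 (SE 0.17, limma adjusted p = 0.48, unadjusted p = 0.0157), with an exact permutation p = 0.0286. Dld, the third component, which is shared with pyruvate dehydrogenase and the branched-chain complex, averaged 153 ± 18.6 FPKM in knockouts and 139.6 ± 18.1 FPKM in wild type (SD, n = 4 each).

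The enzymes that follow had smaller differences. Suclg1, the shared subunit of succinyl-CoA synthetase (ENSMUSG00000052738, chromosome 6, 73248382 to 73276911), read 217, 186, 190.0 and 204 FPKM in KO5 to KO8 and 232, 224, 213 and 227 FPKM in WT1 to WT4. It was the steadiest of the 9, with coefficients of variation of 7.23% in knockouts and 3.74% in wild type. Only KO5 exceeded the lowest wild-type mouse, WT3, and the log2 difference was -0.17 (limma adjusted p = 0.534, exact permutation p = 0.0571). After median-ratio scaling that difference was -0.015.

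Fumarase (Fh1, ENSMUSG00000026526, chromosome 1, 175600374 to 175625635) turns fumarate into malate. It read 280.1, 243, 203 and 229 FPKM in KO5 to KO8 and 297, 233, 212 and 273 FPKM in WT1 to WT4. These ranges lay almost on top of each other, and the log2 difference was -0.086 (95% interval -0.44 to 0.27, limma adjusted p = 0.807), but 0.069 after median-ratio scaling. Malate dehydrogenase (Mdh2, ENSMUSG00000019179, chromosome 5, 135778480 to 135790398) regenerates oxaloacetate. Knockouts read 589, 478, 436 and 496 FPKM, against 602, 512, 625 and 574 FPKM in wild type. KO5 lay within the wild-type range and the other 3 knockouts below it, with a log2 difference of -0.21 (limma adjusted p = 0.517, exact permutation p = 0.0857). That difference was -0.059 after median-ratio scaling and -0.44 after quantile scaling.

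**Figure D2:**
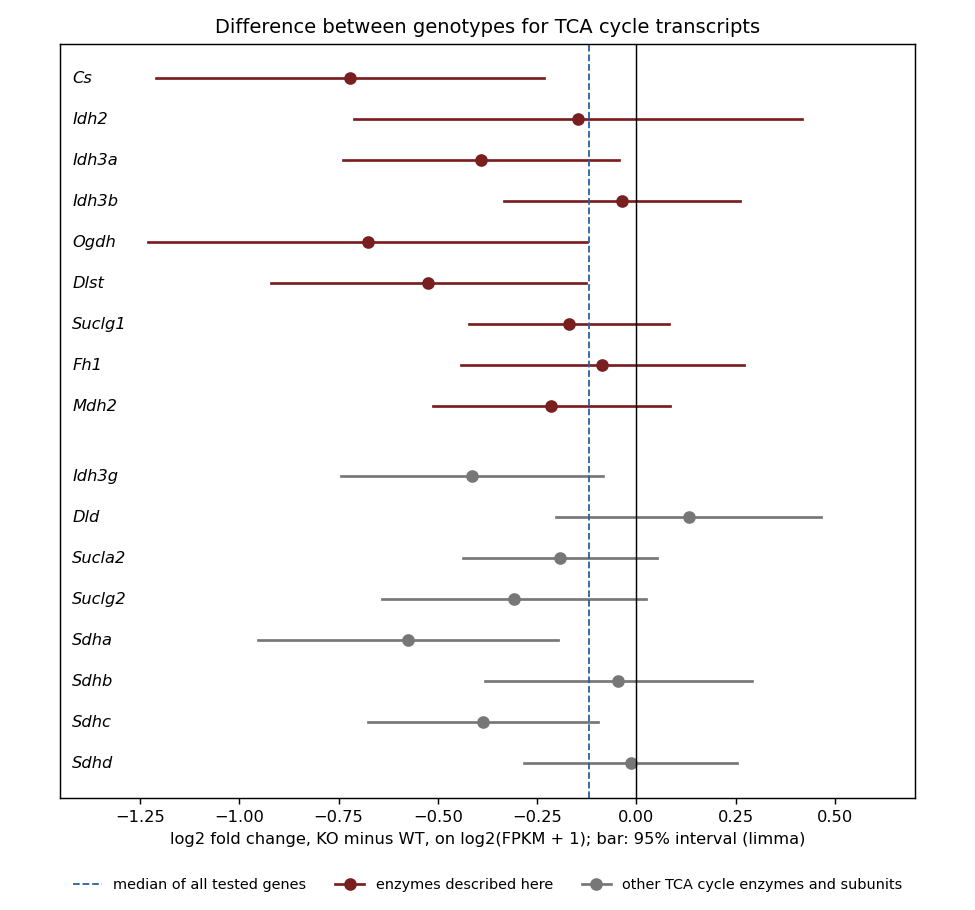
Log2 fold change, KO minus WT, with its 95% interval (limma on log2(FPKM + 1), n = 4 each) for the 9 enzymes (dark red, above) and 8 other TCA cycle enzymes and subunits (grey, below). The dashed line is the median of all tested genes, -0.12. The intervals of Cs, Idh3a, Ogdh and Dlst stay below 0, as do those of Idh3g, Sdha and Sdhc among the grey.

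A further 8 enzymes and subunits of the cycle were listed as Idh3g, Dld, Sucla2, Suclg2 and Sdha to Sdhd. None passed over all genes by limma, 3 were lower at an unadjusted p under 0.05 and 0 higher, and groups did not overlap for 4 of 8, all lower in knockouts. Over all tested genes, 7.33% were lower and 2.99% higher at that level, and 4.68% were apart and lower. Idh3g averaged 142 ± 12.9 FPKM in knockouts and 190.0 ± 28.6 FPKM in wild type. Of succinate dehydrogenase, the flavoprotein Sdha averaged 158 ± 20.0 FPKM in knockouts and 237 ± 42.9 FPKM in wild type (SD, n = 4 each). The membrane anchor Sdhc averaged 413 ± 30.6 FPKM in knockouts and 542 ± 64.7 FPKM in wild type. The groups of these 3 and of Sucla2 did not overlap. The iron-sulphur subunit Sdhb and the anchor Sdhd had means of 415 and 272 FPKM in knockouts and 429 and 276 FPKM in wild type. Sucla2 averaged 302 FPKM in knockouts and 346 FPKM in wild type, and Suclg2 11.7 FPKM in knockouts and 14.8 FPKM in wild type.

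Ratios between partners within a library do not depend on how the libraries were scaled, and 8 are given. A trend of fold change with transcript length, described below, was not removed from them. Idh3b over Idh3g was 2.61, 2.41, 2.11 and 2.59 in KO5 to KO8, and 1.99, 2.08, 1.46 and 1.99 in WT1 to WT4. Every knockout was above every wild-type mouse, with a log2 difference of 0.38 (exact permutation p = 0.0286, adjusted over the 9 ratios of the design p = 0.171, n = 4 each). Idh3a over Idh3b was 0.485 ± 0.0388 in knockouts and 0.626 ± 0.101 in wild type, with WT1 inside the knockout range (exact permutation p = 0.0571, adjusted p = 0.171, n = 4 each). Idh3a over Idh3g, in contrast, was 1.18 ± 0.0915 in knockouts and 1.16 ± 0.112 in wild type (exact permutation p = 0.8, n = 4 each). Within the complex, Idh3b was thus high in knockouts relative to Idh3g, Idh3a over Idh3g had close means, and none of these ratios passed the adjustment.

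Ogdh over Dld was 0.536 ± 0.14 in knockouts and 0.962 ± 0.356 in wild type, with KO7 above WT1 (exact permutation p = 0.0571, adjusted p = 0.171, n = 4 each). For Ogdh over Dlst the mean was 1.38 in knockouts and 1.53 in wild type, with overlapping groups (exact permutation p = 0.314). Suclg1 over Sucla2 and over Suclg2 had exact permutation p = 0.771 and 0.229, and Mdh2 over its cytosolic counterpart Mdh1 gave 0.314. The smallest adjusted p among the 8 ratios was 0.171.

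**Figure D3:**
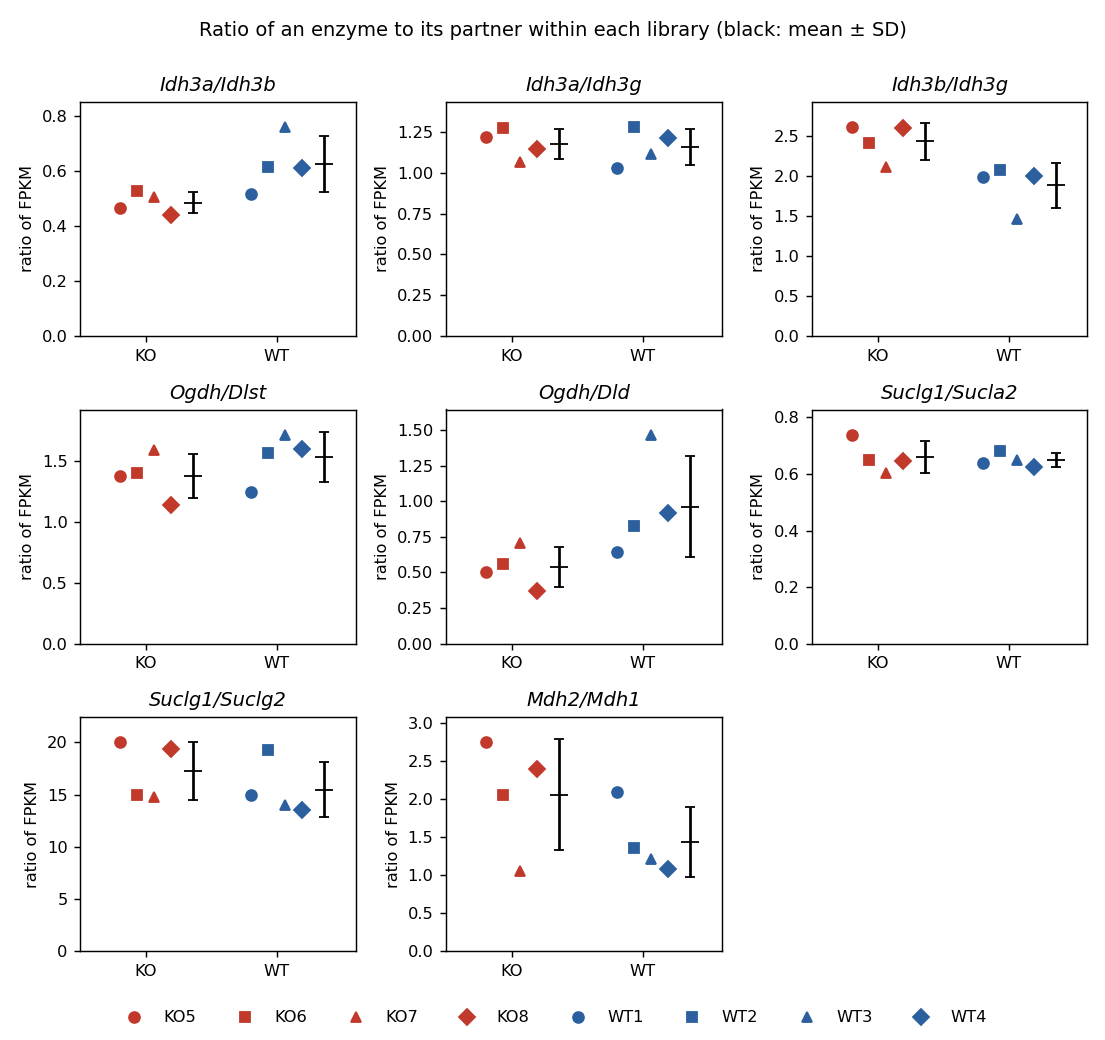
Ratio of the FPKM of an enzyme to that of its partner in the same library (y axis, from 0), in KO mice (left, red) and WT mice (right, blue), with the mean ± SD in black (n = 4 each). Knockouts lie fully above wild type for Idh3b over Idh3g, and the groups overlap in the other 7 ratios.

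Mouse by mouse, WT3 had the highest value of 5 of the 9 enzymes and KO8 the lowest of 4. Centred on their own mean over the 8 mice, the 9 enzymes averaged 0.0016, -0.10, -0.19 and -0.37 on the log2 scale in KO5 to KO8. In WT1 to WT4 they averaged 0.11, -0.048, 0.33 and 0.27. WT2 was the lowest wild-type mouse and lay below KO5. The median of all tested genes was itself low in KO8, at -0.35, and highest in WT3, at 0.16. Relative depth was 0.774 in KO8 and 1.22 in WT3, while the shallowest library was WT4 at 0.435, and its part in the result was not tested. Cs, Ogdh, Dlst and Idh3a had their highest value in WT3 and their lowest in KO8, but Idh3b, Suclg1 and Fh1 had neither extreme there.

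**Figure D4:**
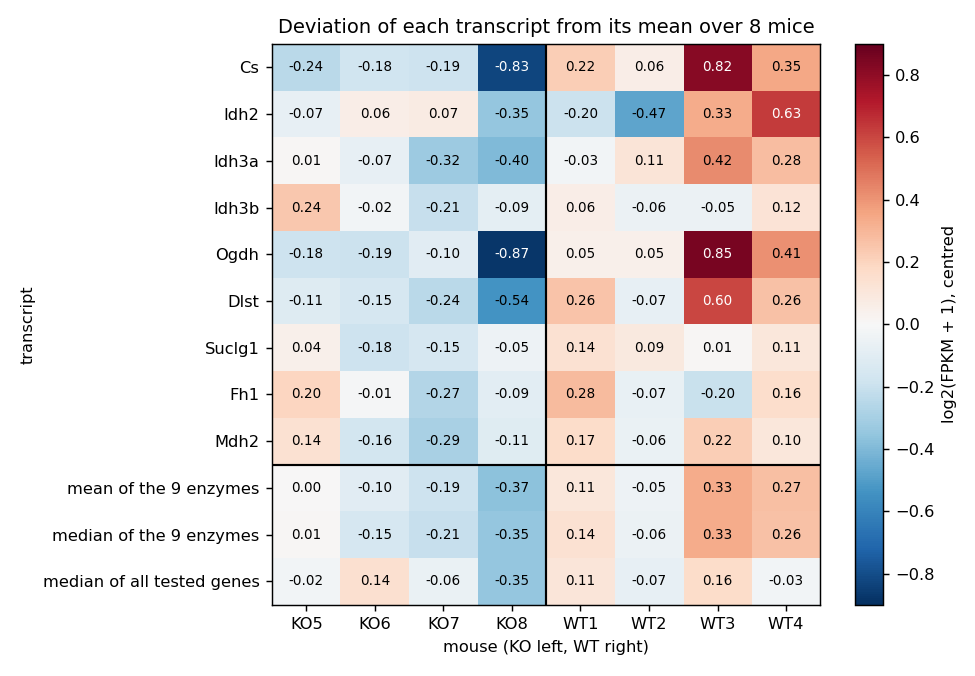
Centred log2(FPKM + 1) of each enzyme (rows) in KO mice (left 4 columns) and WT mice (right 4 columns), with the mean and median of the 9 and the median of all tested genes below. Cs and Ogdh reach 0.82 and 0.85 in WT3 and -0.83 and -0.87 in KO8, and Suclg1 stays between -0.18 and 0.14.

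The genes outside the 9 whose course over the 8 mice was nearest to the enzymes' average were Opa1, Eml1, Zfp580, Ndufv1 and Immt. Likeness was the root-mean-square difference of centred log2 profiles from the average of the 9 enzymes, and it ran from 0.0417 for Opa1 to 0.0569 for Immt. The 9 enzymes themselves lay further from that average, from 0.0943 for Idh3a to 0.275 for Ogdh. These genes are thus near the average, which no single enzyme follows as closely. Opa1 and Immt act at the mitochondrial inner membrane, in fusion and in cristae structure, and Ndufv1 is a subunit of complex I. Opa1 read 13.3, 12.1, 11.9 and 9.67 FPKM in KO5 to KO8 and 15.3, 13.1, 17.7 and 16.1 FPKM in WT1 to WT4. Eml1 is a microtubule-associated protein, and Zfp580 a zinc finger protein.

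Fold change went with transcript length across the muscle transcriptome. Over 11024 tested genes with an annotated transcript, the median log2 fold change was 0.17 in the shortest decile and -0.23 in the longest. In WT3 the median deviation ran from -0.47 in the shortest to 0.36 in the longest decile, the widest span among the 8 mice. The 4 enzymes with the most negative fold changes were among the 5 longest transcripts: Cs is 2926 bases, Dlst 2764, Ogdh 4127 and Idh3a 2580, against 1456 to 1745 bases for Mdh2, Suclg1, Idh3b and Idh2. Fh1, at 2636 bases, was the remaining 1 of these 5 and longer than Idh3a, with a log2 difference of -0.086. Across the 9 enzymes, Pearson's r of log2 length and fold change was -0.78 and Spearman's rho -0.63, as a description over genes of the same libraries. Relative to the median of their own length decile, Cs lay at -0.57, Ogdh at -0.49, Dlst at -0.40 and Idh3a at -0.26. With a trend on length and GC content taken out of each mouse, an alternative chosen after seeing the data, the differences were -0.58 for Cs, -0.45 for Ogdh and -0.38 for Dlst. Their unadjusted limma p were 0.0067, 0.0279 and 0.0172, against a share of 5.62% of genes lower at that level, and their adjusted p ran from 0.486 to 0.49. Idh3a then had -0.33 and an unadjusted p = 0.0731.

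**Figure D5:**
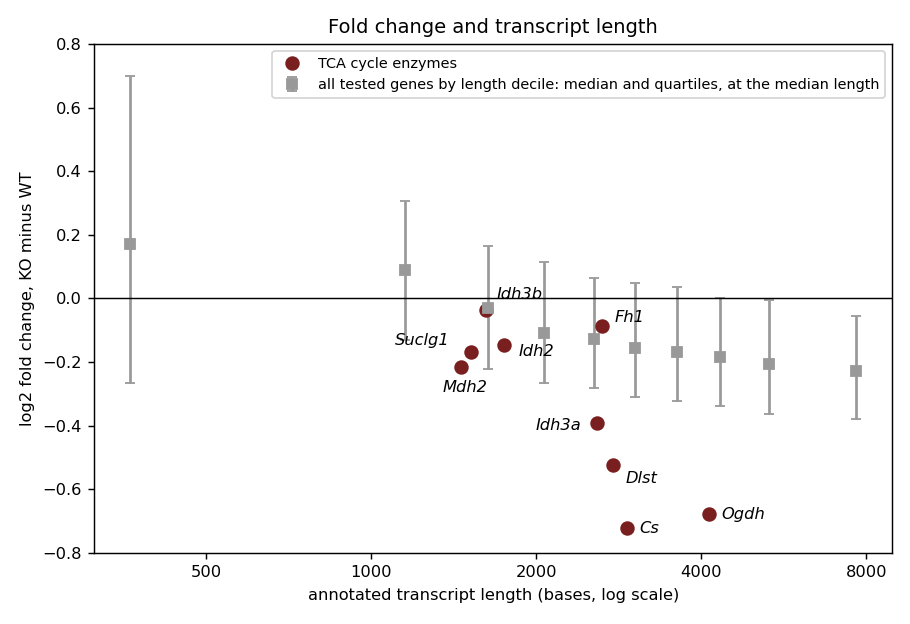
Log2 fold change, KO minus WT (y axis), against annotated transcript length (x axis, log scale) for the 9 enzymes (dark red) and for deciles of all tested genes (grey squares: medians, bars: quartiles). Decile medians run from 0.17 to -0.23, and Cs, Ogdh, Dlst and Idh3a lie under the lower quartile of their deciles.

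Genes that feed or use the cycle were set beside the enzymes. Over all tested genes, 7.33% were lower and 2.99% higher at an unadjusted limma p under 0.05, and 4.68% were apart and lower. Of 7 genes of pyruvate entry, 0 passed over all genes by limma, and 2 were lower and 0 higher at an unadjusted p under 0.05. Their fold changes were below 0 for 4 and above 0 for 3. Those above included Mpc1, with means of 1704 FPKM in knockouts and 1244 FPKM in wild type, and Mpc2, with 633 and 493 FPKM. Dlat, the acetyltransferase core of pyruvate dehydrogenase and the counterpart of Dlst, read 42.2, 66.5, 64.4 and 50.9 FPKM in KO5 to KO8 and 103, 74.6, 111 and 91.6 FPKM in WT1 to WT4. Its groups did not overlap, and its log2 difference was -0.76 (limma adjusted p = 0.48). Of 6 tested genes that link the cycle to aspartate and glutamate, 0 passed and 2 were lower at an unadjusted p under 0.05. Among these, the oxoglutarate carrier Slc25a11 averaged 121 FPKM in knockouts and 154 FPKM in wild type. Of the 4 cytosolic counterparts, Mdh1 was the 1 lower at that level, with means of 268 ± 99.5 FPKM in knockouts and 429 ± 117 FPKM in wild type. Neither of the 2 tested tricarboxylate and dicarboxylate carriers reached it, and the smallest p was that of Slc25a10. That dicarboxylate carrier read 1.16 to 13.9 FPKM in knockouts, highest in KO6, and 1.83 to 45.3 FPKM in wild type, highest in WT1, the same mice that had most fat transcripts.

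Of 12 porin and import genes, 0 passed, 2 were lower and 1 higher at an unadjusted limma p under 0.05. The shares of all tested genes at that level were 7.33% lower and 2.99% higher, and 4.68% were apart and lower. The import receptor Tomm20 averaged 27.5 ± 6.18 FPKM in knockouts and 18.3 ± 3.18 FPKM in wild type (SD, n = 4 each, limma adjusted p = 0.48). Of 6 tested regulators of mitochondrial genes, 0 passed and 1 was lower at that level, the coactivator Ppargc1a (PGC-1alpha). It read 2.92, 2.43, 2.98 and 2.99 FPKM in KO5 to KO8 and 3.00, 3.64, 4.55 and 4.37 FPKM in WT1 to WT4. These groups did not overlap, but KO8 and WT1 were almost equal.

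Markers of fibre types and other cells were read in the same libraries. Over all tested genes, 7.33% were lower and 2.99% higher at an unadjusted limma p under 0.05. Groups were apart and lower for 4.68%, apart and higher for 2.08%, and the fold change was below 0 for 63.6%. General skeletal muscle markers (5 of 6 found) summed to 50002 to 82832 FPKM in knockouts and 49220 to 56165 FPKM in wild type. Summed slow-fibre markers (9 genes) ran from 505 to 1745 FPKM in knockouts, highest in KO5, and from 259.7 to 1319 FPKM in wild type, lowest in WT2. On the log2 scale the fold changes of 9 of 9 were above 0, with a median of 0.52, though 0 reached an unadjusted limma p under 0.05. Low values in WT2 weigh on that scale, such as Myh7 at 0.155 FPKM against 6.51 to 27.4 FPKM in the other wild-type mice. By mean FPKM, knockouts were at 86.0% of wild type for Atp2a2 and 98.0% for Myh7. The others ran from 101% for Myl2 to 154% for Tnni1. Myh2, the myosin of oxidative fast fibres, was 51.5 to 97.9 FPKM in knockouts and 76.4 to 152 FPKM in wild type, with its lowest value in KO8 and its highest in WT3 as for Cs. Fast-fibre markers (9 genes) summed to 77079 to 116408 FPKM in knockouts and 78433 to 92096 FPKM in wild type. Of these, 2 were lower in knockouts at an unadjusted limma p under 0.05 and 0 higher. The fold changes of the 9 were mixed, below 0 for 5 and above 0 for 4 (Mylpf, Actn3, Pvalb and Tnni2). Casq1, the fast calsequestrin, averaged 829.9 ± 108 FPKM in knockouts and 1227 ± 255 FPKM in wild type, with groups apart, and Myh4, the fastest myosin, 2616 ± 402 FPKM in knockouts and 4044 ± 872 FPKM in wild type (SD, n = 4 each). Myh1 was listed at 0 in KO7 and was 60.9 to 107.7 FPKM in the other knockouts, below the 110.2 to 245 FPKM of wild type. Adipocyte markers (7 genes) summed to 1328 to 8266 FPKM in knockouts, highest in KO6, and 614 to 15703 FPKM in wild type, highest in WT1. Keratinocyte markers (5 genes) summed to 468 FPKM in KO6 and at most 2.61 FPKM elsewhere. Endothelial markers (5 genes) summed to 24.7 to 47.1 FPKM in knockouts and 40.7 to 69.0 FPKM in wild type. The fold changes of 5 of 5 endothelial markers were below 0, and Cdh5, with groups apart, and Kdr had an unadjusted limma p under 0.05. The sums of fibroblast markers (6 genes) were 369 to 558 FPKM in knockouts and 420.1 to 703 FPKM in wild type, and 2 of the 6, Col1a1 and Col1a2, were lower in knockouts at that level. Schwann cell markers (6 genes) summed to 75.1 to 184 FPKM in knockouts and 49.9 to 93.4 FPKM in wild type, and 2 of the 6, Mbp and Ncmap, were higher in knockouts at that level, Ncmap with groups apart. In none of the marker lists did a gene pass the adjusted threshold by limma. Macrophage markers (5 of 6 found) summed to 9.06 to 20.4 FPKM in knockouts and 8.66 to 22.9 FPKM in wild type, and cardiac markers (4 genes) to 1.75 to 4.32 FPKM in knockouts and 1.90 to 2.34 FPKM in wild type. The part of these markers in the enzyme values was not tested. Without WT1 and KO6, the libraries with most fat transcripts, the log2 differences were -0.83 for Cs, -0.82 for Ogdh, -0.56 for Dlst and -0.51 for Idh3a, none of them past the adjusted threshold by limma.

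The authors' deposited table carries flags for 2 thresholds of its own p, and does not name the test behind them. The authors' deposited table flags 9 of the 9 enzymes at its first threshold of 0.05 and 6 at its second of 0.001, the exceptions being Fh1, Idh2 and Idh3b. The flag on Idh3b stands beside the authors' deposited means of 345 FPKM in knockouts and 352 FPKM in wild type. Of rows with a mean of at least 100 FPKM, 74.6% carried the 0.05 flag of the authors' deposited table, against 5.15% of the other rows. More abundant transcripts were thus flagged more often, and the flags were not used as support for a difference.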

How the data were processed

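Gastrocnemius RNA of 4 knockout and 4 wild-type mice was sequenced for 50 cycles. TopHat 2.0.9 aligned the reads to mm10, and Cufflinks 2.0.2 turned uniquely mapped ones into FPKM, per the labels' protocols, whereas the submitters' processing notes name Cufflinks 2.2.1. The deposited unit is FPKM per gene and mouse, and the deposited table also holds the authors' group means, SE and 2 flags (0 or 1), per the file headers. No source used here names the annotation or strandedness. Each sample is 1 mouse, per the labels. Depth is known only relative to WT2, so precision rests on the spread between mice.

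A symbol listed more than once was represented by its row of highest mean. Genes with a mean of at least 1 FPKM were tested by limma-trend 3.58.1 (R 4.3.3) on log2(FPKM + 1), knockout minus wild type, with genotype as the only term and Benjamini-Hochberg adjustment over 11118 genes at 0.05. This scale understates the change of low genes. Exact permutation tests used the 70 labelled splits of the 8 mice. Positions are the deposited start plus 1. Transcript length and GC are of the longest coding transcript of the gene in GENCODE M21. Python 3.11.15, pandas 2.3.3 and scipy 1.17.1 were used, and the fits were tested on simulated data. Relative depth is the inverse of the mode of FPKM ratios to WT2 among genes under 0.3 FPKM. The enzymes, the lists and the rule for named genes (all 9 enzymes, the list of other cycle enzymes, from each further list the genes past the threshold or else the one with the smallest p, and the 5 most alike) were chosen with earlier results of these data known. One gene and 1 ratio that needs it are not reported here. Alternatives varied the pseudocount, filter, scaling, weights, eBayes, row choice and mice, and, after seeing the data, removed a length and GC trend.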

Additional observations from a re-analysis of the deposited data

Results flagged for a closer look

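In 3 of 50 groups of 4 values examined (the 9 enzymes, 8 other enzymes of the cycle and 8 ratios, in each genotype), 1 mouse lay far from the other 3 by Dixon's criterion. Chance gives about 5% of such groups. Cs in KO8 was 92.0 FPKM, against 138 to 145 FPKM in the other knockouts. Ogdh in KO8 was 54.4 FPKM, against 87.7 to 93.5 FPKM in the other knockouts. The ratio of Idh3b to Idh3g in WT3 was 1.46, against 1.99 to 2.08 in the other wild-type mice. All tested genes had their lowest median in KO8, at -0.35 on the centred log2 scale.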

How the results depend on the processing

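No paired analysis was possible because the knockout columns carry numbers that no labelled knockout has. Over 19 alternatives for each of the 9 enzymes, 166 of 171 fold changes kept their sign, the number of enzymes past the adjusted threshold was 0 throughout by limma, and the lowest adjusted p was 0.378. Cs and Dlst had an unadjusted p under 0.05 in 19 of 19 alternatives, Ogdh in 17 and Idh3a in 13. Median-ratio scaling turned Idh2 (0.0077), Idh3b (0.12) and Fh1 (0.069) to a positive sign, as it moved the median of all genes from -0.12 to 0.0026. With each mouse left out in turn, Idh2 ran from -0.33 to 0.039 and Idh3b from -0.12 to 0.026, positive without WT4 and without KO7. The number of enzymes at an unadjusted p under 0.05 ran from 2 to 4 as mice were left out, the number with groups apart from 3 to 6, and the number of all genes called from 3 to 8. For groups apart and for an unadjusted p under 0.05, no share over all genes was taken with a mouse left out. The number of enzymes at an unadjusted p under 0.05 was 5 with quantile scaling, which took in Mdh2, and 5 with no filter, which took in Suclg1, and 3 to 4 in the other alternatives. Except with the length and GC trend removed, no share over all genes was taken in these alternatives, so the counts cannot be set against one. Without both WT1 and KO6, 10 of all genes were called. The ratio of Idh3a to Idh3g ran from -0.034 to 0.072 on the log2 scale as mice were left out (negative without KO6 or WT1) and was -0.074 without WT1 and KO6, and Suclg1 to Sucla2 ran from -0.034 to 0.063 (negative without KO5). With 4 against 3 mice the exact test cannot reach 0.05, so those ratios show values only. Depth per library is known only relative to WT2.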
